A study of Danio rerio with 6 samples.

Results

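Recoverins and guanylate cyclase activators are calcium-binding proteins of photoreceptor cells, and 4 of their genes were followed here through the pineal gland, the eye and other organs of adult zebrafish. The 4 were taken by gene ID from an expression table of 32105 genes: the recoverin genes RCVRN (ENSDARG00000009637) and rcvrna (ENSDARG00000052223), and the guanylate cyclase activator genes guca1aa (ENSDARG00000010454) and GUCA1A (ENSDARG00000101567). A second table row carries the symbol RCVRN (ENSDARG00000019902) and another the symbol GUCA1A (ENSDARG00000100747). Where no other ID is given, RCVRN and GUCA1A below are ENSDARG00000009637 and ENSDARG00000101567.

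The series holds 6 poly-A RNA libraries, 1 for each of 3 tissues at each of 2 times. The night libraries came from fish dissected in the middle of the dark phase, at zeitgeber time (ZT) 18, and the day libraries from fish dissected in the middle of the light phase, at ZT 6. The pineal libraries are pools of 18 glands, the eye libraries pools of 6 whole eyes, and the mixed libraries equal amounts of RNA from 8 organs (muscle, ovary, kidney, gill, liver, intestine, heart and brain), with 4 to 8 of each collected at each time. All fish carried the Tg(aanat2:EGFP) transgene, in which regulatory regions of aanat2 drive a green fluorescent protein in the pineal gland, and the glands were dissected by that fluorescence. The fish were 0.5 to 1.5 years old and were kept in cycles of 12 h of light and 12 h of darkness, whichever tissue was taken. Whole eyes include the lens, the pigment epithelium and the inner retina beside the photoreceptors. Levels are in FPKM (fragments scaled by gene length and library depth), a unit per length that lets genes be set beside each other within a library.

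In the outer segment, calcium enters through channels held open by cyclic GMP and leaves through an exchanger. Light closes the channels and calcium falls. Recoverin with calcium bound holds back the kinases that shut off light-activated opsin, and guanylate cyclase activators that have lost calcium switch on the membrane cyclases that restore cyclic GMP. Both families therefore act in recovery from light and in adaptation. Teleost fish carry several paralogs of each, and pineal photoreceptors use much of the same cascade as rods and cones. The teleost pineal gland is itself light sensitive and makes melatonin at night.

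The library totals, recovered from the FPKM values themselves, were 7949224 to 15950819 reads. Each total was sought close to the sum of recovered reads on genes. The share on genes, 99.60% to 99.73%, is therefore no measure of library quality. Pineal markers were highest in the pineal libraries and lens markers in the eye libraries. The lists held no markers of most organs in mixed tissue. The 6 pineal marker genes summed to 6468 FPKM at night and 5148 FPKM by day in the pineal gland, 298 and 189 FPKM in the eye, and 3.67 and 4.44 FPKM in mixed tissue. The 12 lens markers summed to 12.2 and 13.2 FPKM in the pineal libraries, with 8 of 12 under 1 FPKM in both, against 4177 and 7547 FPKM in the eye at night and by day. Rod markers summed to 8247 to 10162 FPKM in the pineal gland, 9055 to 10315 FPKM in the eye and 42.3 to 46.2 FPKM in mixed tissue.

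RCVRN was among the most abundant transcripts of the pineal gland. It had 714 FPKM in the night pineal library and 1622 FPKM in the day pineal library, 55.0 and 105 FPKM in the eye at night and by day, and 0.315 and 0.356 FPKM in mixed tissue. By level it ranked 43 of 32105 genes in the pineal gland at night and 11 by day, and 1153 and 490 in the eye. Both pineal libraries stood above both eye libraries and both eye libraries above both mixed libraries. The share of all genes with such an order of libraries is not given here, so the order alone does not single the gene out. The 2 mixed values rest on 18 and 20 reads and differed by less than their counting error, with a night over day ratio of 0.886 and a 95% exact interval of 0.442 to 1.76. Intervals here cover counting error only.

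The paralog rcvrna had a high pineal level too, but its night and day libraries differed in the eye and hardly in the gland. It had 840.1 FPKM at night and 796 FPKM by day in the pineal gland, 101 and 334 FPKM in the eye, and 0.166 and 0.169 FPKM in mixed tissue. Its rank was 31 and 30 in the pineal gland at night and by day, and 472 and 97 in the eye. The order of the tissues was that of RCVRN. The 2 pineal libraries were close to each other, while the night eye was the lower of the 2 eye libraries. Each mixed value is 3 reads, and their ratio of 0.985 has an interval of 0.132 to 7.35.

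The cyclase activator guca1aa was higher in the night library of both gland and eye. It had 1391 FPKM at night and 465 FPKM by day in the pineal gland, 316 and 61.3 FPKM in the eye, and 0.244 and 0.193 FPKM in mixed tissue. At night it ranked 12 of all genes in the pineal gland and 80 in the eye, while by day it ranked 75 and 1002. The day pineal library still stood above the night eye library, although the gap between those 2 libraries was smaller than the gap between the 2 pineal libraries. The mixed values, 9 and 7 reads, were indistinguishable, with a ratio of 1.27 and an interval of 0.420 to 4.00.

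GUCA1A was high in the day eye library alone. It had 0.276 FPKM at night and 0.415 FPKM by day in the pineal gland, 2.56 and 168 FPKM in the eye, and 0.188 and 0.140 FPKM in mixed tissue. The reads behind these values were 11 and 23 in the pineal gland, 172 and 12652 in the eye, and 15 and 11 in mixed tissue. The day eye library stood far above the other 5, and the gene ranked 14975 of all genes in the night eye and 275 in the day eye. Both pineal libraries lay above both mixed ones by less than 0.3 FPKM. In the pineal gland the night over day ratio of 0.665 has an interval of 0.292 to 1.42.

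**Figure D1:**
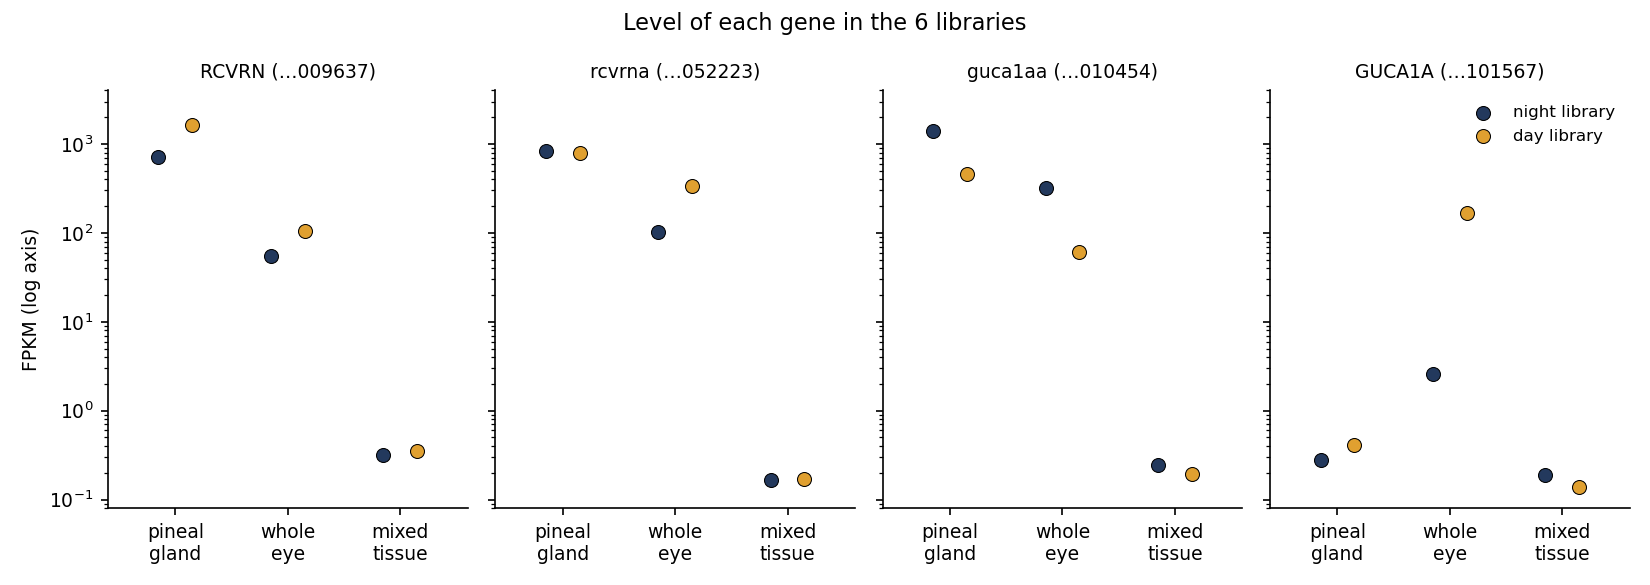
Level of RCVRN, rcvrna, guca1aa and GUCA1A in the 6 libraries, 1 point per library, in FPKM on a log axis, with the night library left of the day library in each tissue. RCVRN, rcvrna and guca1aa fall from the pineal gland to the eye to mixed tissue, while GUCA1A is high in the day eye library alone, at 168 FPKM.

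Tissue differences were tested with limma on log2(FPKM + 1) in 1 model of all 6 libraries with tissue and time as terms, so that the night and day pools of a tissue stand in for replicates. A gene was called at an adjusted p under 0.05 (Benjamini-Hochberg over 21325 genes) and a change of at least 2-fold, two-sided. All 4 genes passed the filter of 1 FPKM in 2 libraries, GUCA1A through the eye libraries and the other 3 through pineal and eye libraries. Differences on this scale understate the change of genes that are low in one tissue. The labels do not say whether the glands, eyes and organs of a time came from the same fish. With 1 library per tissue and time, the residual spread behind the p-values is how unlike the night minus day differences of the 3 tissues are. It holds no variation between pools of the same tissue and time. In bulk tissue, fewer cells of a type and less RNA per cell cannot be told apart.

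Pineal gland against mixed tissue asks which transcripts mark the gland. RCVRN averaged 1168 ± 642 FPKM in the pineal gland and 0.336 ± 0.029 FPKM in mixed tissue (SD, n = 2 pools each), a difference of 9.66 on the log2 scale (SE 0.29, limma adjusted p 2.21e-05). The difference was 9.45 for rcvrna (SE 0.46, adjusted p 7.28e-05) and 9.37 for guca1aa (SE 0.52, adjusted p 0.000101). GUCA1A was not called, at 0.21 (SE 1.38, adjusted p 0.907), and its sign turned to -1.10 without the pineal night library and -1.25 without the mixed day library. Thus 3 of the 4 genes were called higher in the gland, where 16.4% of all tested genes were. The 3 calls held under all 16 alternative settings each.

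RCVRN, rcvrna and guca1aa were called higher in the eye than in mixed tissue, where 20.7% of all tested genes were. GUCA1A was called too, but it entered the test only through the eye libraries where it is high. Its call therefore adds nothing to its levels. This comparison uses the same mixed libraries as the one before. The difference was 5.85 for RCVRN (limma adjusted p 8.46e-05), 7.31 for rcvrna (adjusted p 0.000148) and 6.85 for guca1aa (adjusted p 0.000270). GUCA1A averaged 85.3 ± 117 FPKM in the eye and 0.164 ± 0.034 FPKM in mixed tissue (SD, n = 2 pools each), a difference of 4.40 (SE 1.38, limma adjusted p 0.0347). The other 3 calls held under all 16 alternatives. The GUCA1A call was lost without the mixed day library (2.94, adjusted p 0.311) or the mixed night library (5.86, adjusted p 0.111), and the difference was 1.63 without the day eye library and 7.16 without the night eye library.

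The pineal gland and the eye are both photoreceptive, and between them the 4 genes did not move alike. RCVRN averaged 1168 ± 642 FPKM in the pineal gland and 80.2 ± 35.7 FPKM in the eye (SD, n = 2 pools each), higher in the gland by 3.80 on the log2 scale (SE 0.29, limma adjusted p 0.000943). That call held under all 16 alternatives, with differences of 3.41 to 4.15. The other recoverin, rcvrna, averaged 818 ± 31.5 FPKM in the gland and 218 ± 165 FPKM in the eye, higher by 2.14 (SE 0.46, adjusted p 0.0195). For guca1aa the means were 928 ± 655 FPKM in the gland and 189 ± 180.4 FPKM in the eye, a difference of 2.52 (SE 0.52, adjusted p 0.0176). GUCA1A stood at -4.19 (SE 1.38, adjusted p 0.0709), with 0.346 ± 0.099 FPKM in the gland and 85.3 ± 117 FPKM in the eye, and was not called. So 3 of the 4 genes were called higher in the gland, where 9.25% of all tested genes were, and 0 of 4 were called lower, where 14.1% were.

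The calls between gland and eye differed in how firmly they stood. That for rcvrna was lost without the pineal night library (1.68, adjusted p 0.118), the mixed day library (adjusted p 0.0896) or the mixed night library (adjusted p 0.0896), and its difference fell to 1.27 without the night eye library, where it was still called. That for guca1aa was lost without the pineal day (2.70, adjusted p 0.0704), pineal night (2.33, adjusted p 0.103) or day eye library (1.75, adjusted p 0.0777). GUCA1A passed as lower in the gland without the day eye library (-1.43, adjusted p 0.0166) and without the night eye library (-6.95, adjusted p 0.00182), where the single eye library left is taken to vary like the other tissues. The direction stayed the same under all 16 alternatives for all 4 genes. Of 15 rod markers tested in the same comparison 4 were higher and 5 lower in the gland, of 24 cone markers 5 and 12, of 10 inner retina markers 2 and 8, and of 12 lens markers 0 and 12. The shares of all tested genes were 9.25% and 14.1%. Under 1 FPKM in both pineal libraries were 8 of the 12 lens markers and 7 of the 11 inner retina markers listed. Lower calls of markers that passed the filter only through the eye libraries add nothing to their levels. Of 10 pigment epithelium markers 5 were called higher and 2 lower in the gland, against the same shares. Their sums were 1338 to 1417 FPKM in the gland and 365 to 557 FPKM in the eye. RPE65 (ENSDARG00000007480) had 765 and 567 FPKM at night and by day in the gland, against 316 and 48.8 FPKM in the eye. The other way, DCT (ENSDARG00000006008) had 1.73 and 1.01 FPKM in the gland, against 24.6 and 31.2 FPKM in the eye. Brain neuron markers summed to 52.0 to 66.4 FPKM in the gland and 279.7 to 318 FPKM in the eye. The part of these lists in the differences was not tested.

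**Figure D2:**
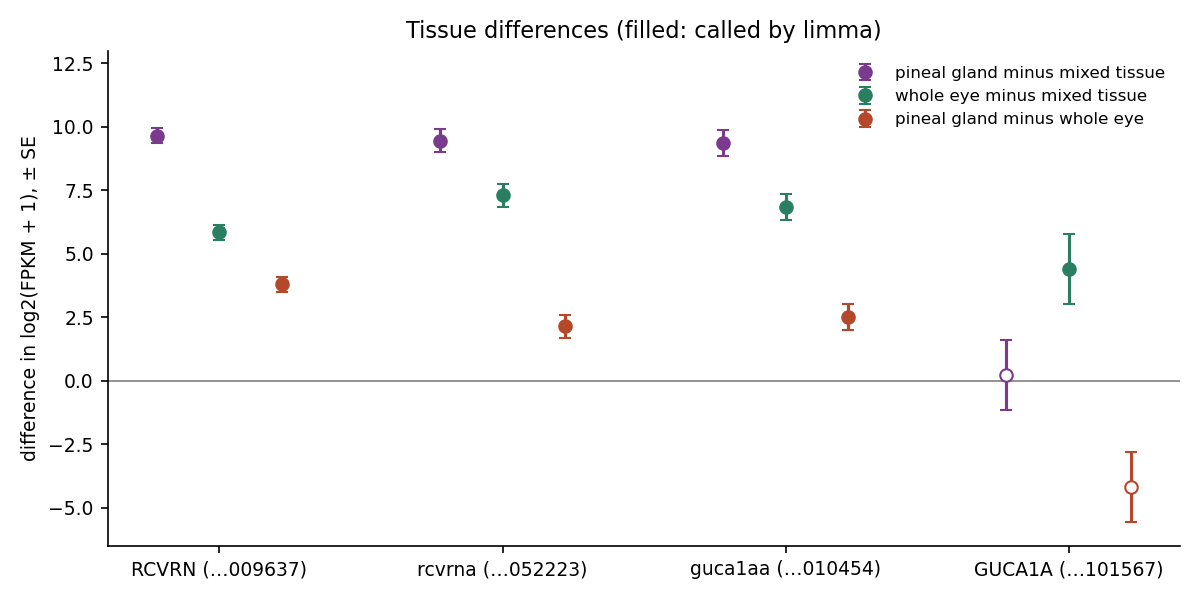
Differences between tissues in log2(FPKM + 1) from the limma model with their SE, pineal gland minus mixed tissue, eye minus mixed tissue and pineal gland minus eye, for the 4 genes. Filled points were called; GUCA1A is the gene with open points, at 0.21 against mixed tissue and -4.19 against the eye.

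The night against day comparison over the 3 tissues has 1 model term and called none of the 4 genes, and 0.0% of the 21325 tested. At an unadjusted p under 0.05 there were 1506 genes, and voom (limma on recovered reads) called 11. RCVRN was at -0.72 (SE 0.24, limma p 0.0272, adjusted p 0.679) and guca1aa at 1.33 (SE 0.42, limma p 0.0229, adjusted p 0.679). RCVRN and guca1aa kept these directions in each alternative. GUCA1A was at -1.89 (SE 1.13, adjusted p 0.698), which shrank to -0.045 without the day or without the night eye library and was -4.92 with voom (adjusted p 0.235). The value of rcvrna was -0.55 (SE 0.37, adjusted p 0.714), which turned to 0.038 without the day or without the night eye library. This term averages the gland, the eye and mixed tissue, and in mixed tissue the 4 genes are near 0.

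Within a tissue there is 1 library per time, so the following ratios have no replicate check and no test. They compare 2 pools, and genes were counted by size alone: at least 2-fold on FPKM + 1 with 5 FPKM or more in the higher library. In the pineal gland, guca1aa was higher at night with a night over day ratio of 2.99 and a 95% exact interval of 2.93 to 3.06. RCVRN was lower at night, with a ratio of 0.440 (0.433 to 0.447). rcvrna was at 1.06 (1.02 to 1.09), which became 0.985 after quantile normalization, so its direction is not settled. Of the 3 genes above 5 FPKM in the gland, 1 was 2-fold higher at night, as were 2.38% of 11753 genes, and 1 was 2-fold lower, as were 2.96%.

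Among those 11753 genes, guca1aa ranked 92 from the largest rise at night and RCVRN 218 from the largest fall, while rcvrna ranked 4526 from the largest rise. The cyclase activator guca1aa and the recoverin RCVRN thus lay on opposite sides of 1 in the same 2 pools. Their families did not split this way. The activators guca1c (ENSDARG00000030758) and guca1g (ENSDARG00000045737) were at 0.204 and 0.454. The recoverin rcvrna was at 1.06 and the other RCVRN row (ENSDARG00000019902) at 0.803. The 16 rod markers summed to 10162 FPKM at night and 8247 FPKM by day in these pools, and the 24 cone markers to 6656 and 6318 FPKM. Of the 4 erythrocyte markers, 4 were lower at night, with sums of 134 FPKM at night and 233 FPKM by day. Their part in the ratios was not tested.

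In the eye, guca1aa was again higher at night, with a ratio of 5.16 (4.93 to 5.41). The other 3 genes were lower at night. RCVRN had a ratio of 0.521 (0.497 to 0.546), rcvrna 0.303 (0.287 to 0.321) and GUCA1A 0.0152 (0.0130 to 0.0177), which is a day over night ratio of 65.7 (56.5 to 76.9). By the size rule 1 of the 4 genes was higher at night, as were 5.89% of 12735 genes, and 2 were lower, as were 5.36%. RCVRN fell just short of 2-fold as deposited and passed it, at 0.484, when libraries were rescaled by their median ratio.

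GUCA1A ranked 3 from the largest fall at night among those 12735 genes, rcvrna 223 and RCVRN 791, while guca1aa ranked 102 from the largest rise. All 12 lens markers were lower in the night eye, 8 of them at least 2-fold, with sums of 4177 FPKM at night and 7547 FPKM by day and a median of -1.04 on the log2 scale, against 0.10 for all genes. Rod markers summed to 9055 FPKM at night and 10315 FPKM by day, with 12 of 15 lower at night and a median of -0.49. By the size rule 2 of these 15 were higher at night and 0 lower, where 5.89% and 5.36% of all genes were. Cone markers went both ways, with 9 of 24 higher and 2 lower at night by the size rule, sums of 10416 and 10796 FPKM and a median of -0.08. Of the 4 brain neuron markers 2 were at least 2-fold higher at night, with a median of 0.80 and sums of 318 and 280 FPKM. These were CAMK2A (ENSDARG00000053617), at 28.8 FPKM at night and 0.371 FPKM by day, and syn1 (ENSDARG00000060368), at 50.4 and 14.4 FPKM. The part of these shifts in the eye ratios was not tested. On the scale of those medians, RCVRN was at -0.93, rcvrna at -1.71, guca1aa at 2.35 and GUCA1A at -5.57.

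**Figure D3:**
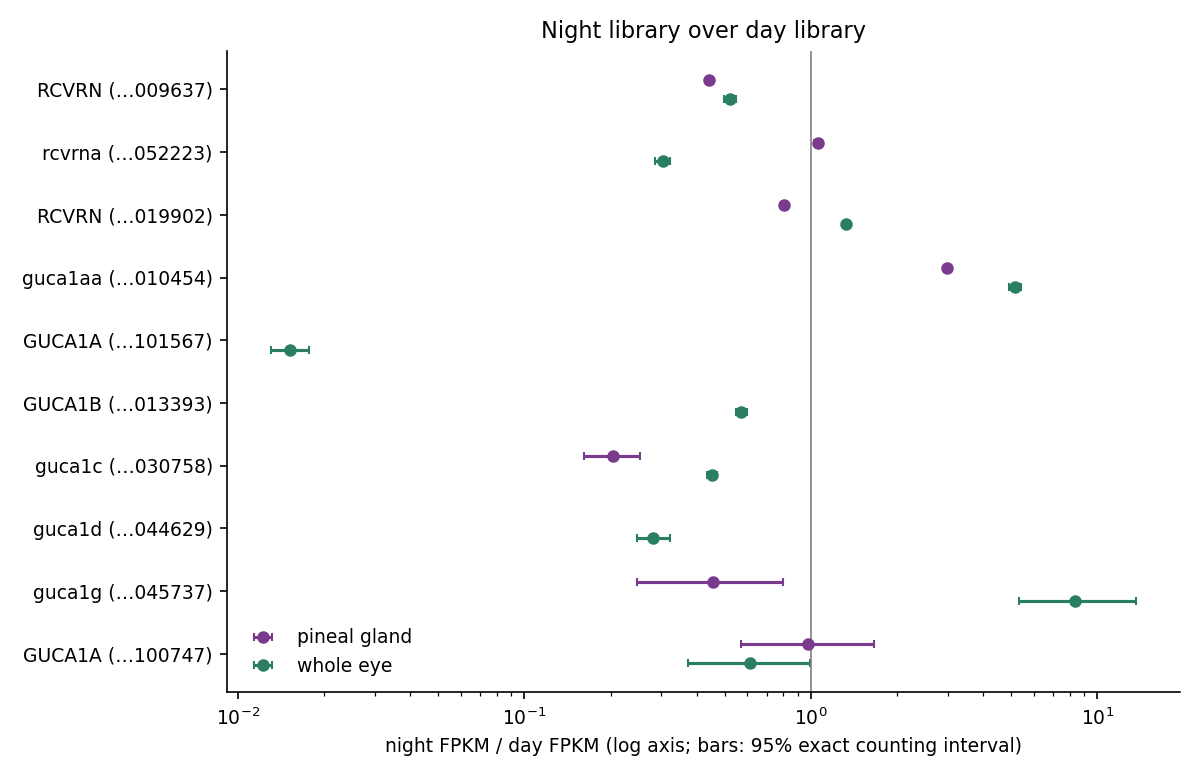
Night over day ratio of FPKM on a log axis for the 3 recoverin and 7 guanylate cyclase activator genes, in the pineal gland and the eye where the higher library had 5 FPKM or more. Bars are 95% exact intervals that cover counting error only; guca1aa lies right of 1 in both tissues (2.99 and 5.16), and GUCA1A is farthest to the left, at 0.0152 in the eye.

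The balance between the recoverin paralogs differed between the tissues and between the night and day pools, with 1 library each and no test. In the pineal gland the level of RCVRN was 0.850 times that of rcvrna at night and 2.04 times by day. In the eye it was 0.542 times at night and 0.316 times by day. The order thus turned in the gland, where rcvrna led at night and RCVRN by day, and rcvrna led in the eye at both times. In mixed tissue the ratio was 1.90 and 2.11, on at most 20 reads a gene.

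The third recoverin row, RCVRN (ENSDARG00000019902), had levels in gland and eye that were close to each other. It had 629 FPKM at night and 783 FPKM by day in the pineal gland, 478 and 361 FPKM in the eye, and 0.122 and 0.124 FPKM in mixed tissue. Its pineal minus eye difference of 0.75 (SE 0.21, limma adjusted p 0.0447) was under 2-fold and not called, except without the night eye (1.03) or the pineal night library (1.01). Of the summed recoverin FPKM of 2183 in the night pineal and 3200.2 in the day pineal, RCVRN made up 32.7% and 50.7%, rcvrna 38.5% and 24.9%, and ENSDARG00000019902 28.8% and 24.5%. In the eye, with sums of 635 FPKM at night and 801 FPKM by day, ENSDARG00000019902 made up 75.4% and 45.1%, rcvrna 16.0% and 41.7%, and RCVRN 8.66% and 13.2%. Each row is thus the leading recoverin in at least 1 of the 4 libraries: rcvrna in the night pineal, RCVRN in the day pineal, and ENSDARG00000019902 in both eye libraries.

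The cyclase activators split far more sharply. Pineal guca1aa made up 99.0% of the summed FPKM of 7 activator genes at night (1406 FPKM) and 91.5% by day (508 FPKM). In the eye it made up 49.4% at night (641 FPKM) and 7.0% by day (875 FPKM). GUCA1A made up 0.0196% and 0.0817% in the pineal gland at night and by day, and 0.399% and 19.2% in the eye. In the gland the level of guca1aa was 5039 times that of GUCA1A at night and 1120.0 times by day, on 11 and 23 reads of GUCA1A. In the eye it was 124 times at night and 0.365 times by day, so their order turned between the 2 eye pools.

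Other activators filled the eye. GUCA1B (ENSDARG00000013393) had 0.676 FPKM at night and 0.348 FPKM by day in the pineal gland, against 157 and 274 FPKM in the eye. guca1c (ENSDARG00000030758) had 6.26 and 30.8 FPKM in the gland, where it was the second activator after guca1aa, against 120 and 266 FPKM in the eye. guca1d (ENSDARG00000044629) was listed at 0 at night and at 1.34 FPKM by day in the gland, and had 27.8 and 98.7 FPKM in the eye. These 3 were called lower in the gland than in the eye, by -7.12 (SE 0.31, limma adjusted p 0.000254), -3.57 (SE 0.46, 0.00396) and -5.13 (SE 0.42, 0.00108). GUCA1B was under 1 FPKM in the gland and in mixed tissue and entered the test through the eye libraries where it is high. So did gc2 and GRK1 below. Outside the eye, guca1d reached 1 FPKM in the day pineal library alone, so it too entered through the eye libraries. The calls of GUCA1B, guca1d, gc2 and GRK1 as lower in the gland therefore add nothing to their levels. guca1g (ENSDARG00000045737), at 2.41 to 5.30 FPKM in the gland and 1.65 to 13.8 FPKM in the eye, and GUCA1A (ENSDARG00000100747), at 4.98 to 5.10 FPKM in the gland and 3.18 to 5.17 FPKM in the eye, were not called, except guca1g as lower in the gland without the day eye library (-1.88, adjusted p 0.0351).

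By time of day, the other 6 activators had ratios on both sides of 1 in the eye. The median night minus day difference of all genes in the eye was 0.10 on the log2 scale. There the night over day ratio was 0.572 for GUCA1B, 0.452 for guca1c, 0.282 for guca1d and 0.614 for GUCA1A (ENSDARG00000100747), beside 0.0152 for GUCA1A (ENSDARG00000101567). The sixth, guca1g, was at 8.34 (5.33 to 13.7), beside 5.16 for guca1aa. In the pineal gland guca1c was lower at night, with a ratio of 0.204 (0.162 to 0.254), and guca1g at 0.454 (0.246 to 0.798). guca1aa was the single activator above 5 FPKM in the gland that was 2-fold higher at night. Of the 6 family members outside the 4 followed genes, 3 were called higher in the gland than in mixed tissue and 5 in the eye. The shares of all tested genes were 16.4% and 20.7%. GUCA1B and guca1d are among the 5 and entered the test through the eye libraries where they are high. Their calls as higher in the eye add nothing to their levels. The medians of the 6 members were 2.03 and 6.08 (-0.28 and -0.19 over all genes). Between gland and eye 0 of the 6 were higher and 3 lower, where 9.25% and 14.1% of all tested genes were. The median was -2.0 (-0.04 over all genes).

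**Figure D4:**
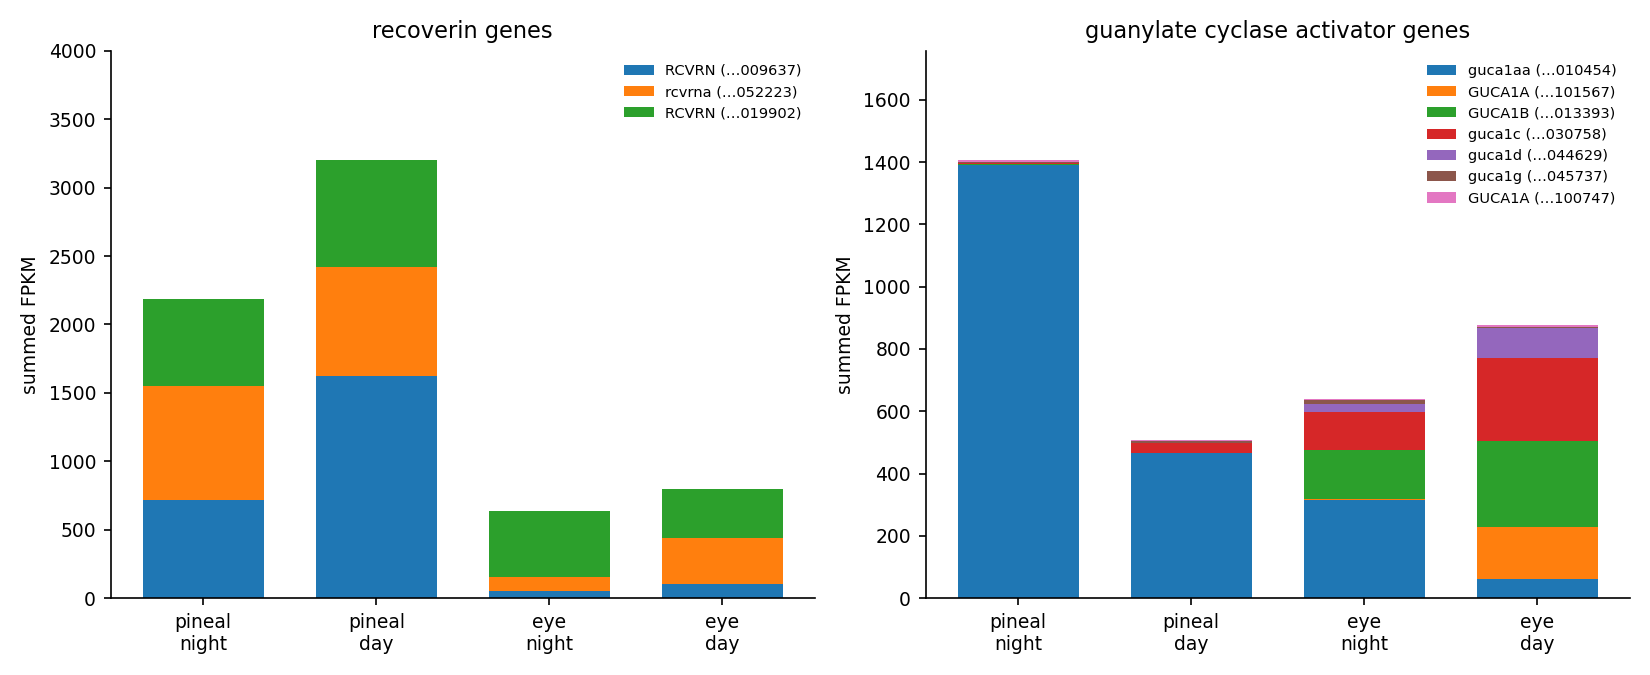
Summed FPKM of the 3 recoverin genes (left) and the 7 guanylate cyclase activator genes (right) in the pineal and eye libraries, with night left of day and 1 colour per gene. The activator bars of the pineal gland are nearly all guca1aa (99.0% and 91.5%), while the eye bars hold guca1aa, GUCA1A, GUCA1B, guca1c and guca1d in shares that differ between night and day.

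Transcripts of the enzymes that the 4 sensors act on differed from one to the next between gland and eye. Of 3 cyclases and 4 opsin kinases, 2 were called higher in the gland, 2 lower and the other 3 not. Among all tested genes 9.25% were called higher in the gland and 14.1% lower. Among the membrane cyclases, the targets of the activators, gucy2f (ENSDARG00000025504) had 150 FPKM at night and 145 FPKM by day in the gland, against 33.9 and 81.9 FPKM in the eye. It was called higher in the gland (1.47, SE 0.36, limma adjusted p 0.0302), a call lost without the pineal night (1.16, adjusted p 0.175), pineal day (0.0678), night eye (0.81, 0.0584), mixed day (0.101) or mixed night library (0.101), with no filter (0.0576) and with these 2 tissues alone (0.0930). gucy2d (ENSDARG00000026820) had 289.7 and 245 FPKM in the gland and 218 and 86.5 FPKM in the eye and was not called (0.95, adjusted p 0.0790), except without the night eye library (1.54) or with median-ratio rescaling (1.00). gc2 (ENSDARG00000018329) had 0.038 and 0.191 FPKM in the gland and 68.6 and 56.8 FPKM in the eye (-5.83, SE 0.22, adjusted p 0.000205). The gland thus held guca1aa beside gucy2d and gucy2f with gc2 near 0, and the eye held all 3 cyclases. Between the pineal pools the cyclases differed little, at ratios of 1.03 and 1.18, beside 2.99 for guca1aa.

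Among the opsin kinases, on which recoverin acts, GRK7 (ENSDARG00000055534) had 276 FPKM at night and 421 FPKM by day in the gland, against 9.70 and 15.1 FPKM in the eye (4.70, SE 0.18, limma adjusted p 0.000205). GRK1 (ENSDARG00000058803) had 0.806 and 0.826 FPKM in the gland, against 195 and 334 FPKM in the eye (-7.14, SE 0.26, adjusted p 0.000182). Another GRK7 (ENSDARG00000020602) and grk1b (ENSDARG00000104685) were above 80 FPKM in both tissues and not called (1.20 and 0.37), the first except without the pineal night (1.85) or night eye library (1.94). All 3 pineal kinases above 5 FPKM were lower at night in the gland, 0 of them by 2-fold, where 2.96% of all genes were. Their ratios were 0.656 for GRK7 (ENSDARG00000055534), 0.553 for GRK7 (ENSDARG00000020602) and 0.533 for grk1b. Their median was -0.85 on the log2 scale, against -0.03 for all genes. In the same pools RCVRN was at 0.440, lower by the size rule, and rcvrna at 1.06. In the eye the ratios of the same 3 genes were 0.642, 2.03 and 0.408, and GRK1 was at 0.584.

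Of 10 genes for calcium entry and exit, 4 were called higher and 3 lower in the gland than in the eye, with a median of 0.11. Of all tested genes 9.25% were called higher and 14.1% lower. The channel subunit cngb3.2 (ENSDARG00000101368) had 615 and 554 FPKM in the gland and 65.0 and 21.8 FPKM in the eye (3.91, SE 0.40, limma adjusted p 0.00203). The exchanger SLC24A1 (ENSDARG00000041431) had 357 and 412 FPKM in the gland and 75.6 and 118 FPKM in the eye (2.01, SE 0.19, adjusted p 0.00165). The other calls, CNGA3 (ENSDARG00000070726, 2.56) and CNGA1 (ENSDARG00000029898, 1.21), were lost without the mixed day or the mixed night library (adjusted p 0.0674 to 0.112) and with these 2 tissues alone (0.102 and 0.0827), CNGA3 also without the pineal day library (1.84) and with no filter (0.0570), and CNGA1 also without the pineal night (0.99) or night eye library (0.91). The subunit cngb1a (ENSDARG00000068242) and the exchangers slc24a2 (ENSDARG00000042988) and SLC24A2 (ENSDARG00000063158) were lower in the gland, by -2.53, -2.25 and -2.58. In the night eye 4 of the 10 genes were at least 2-fold higher, where 5.89% of all genes were, with CNGA3 (ENSDARG00000012297) at a ratio of 6.44, cngb3.1 (ENSDARG00000101225) at 6.22, CNGA3 (ENSDARG00000070726) at 4.48 and cngb3.2 at 2.98, beside 5.16 for guca1aa. 5 of the 10 were below 1, none by 2-fold: CNGA1 (ENSDARG00000012125) at 0.624, CNGA1 (ENSDARG00000029898) at 0.727, cngb1a at 0.628, SLC24A1 at 0.640 and SLC24A2 (ENSDARG00000063158) at 0.933.

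Neuronal calcium sensors of the same superfamily, other than recoverins and guanylate cyclase activators, served as a contrast list. The list was matched by symbol, and its genes were not shown to be absent from photoreceptors. Of 15 tested, 4 were higher and 5 lower in the gland than in mixed tissue, where 16.4% and 30.1% of all tested genes were, with a median of -0.18. In the eye against mixed tissue 10 were higher and 0 lower, with a median of 1.35, where 20.7% of all tested genes were higher. In the gland against the eye 0 were higher and 6 lower, where 9.25% and 14.1% of all tested genes were, with a median of -0.83. In the gland, RCVRN, rcvrna and guca1aa were at 9.37 to 9.66 against mixed tissue and at 2.14 to 3.80 against the eye. GUCA1A was at 0.21 and -4.19, and the 6 other recoverins and activators had medians of 2.03 and -2.0. Against the eye 0 of those 6 were called higher and 3 lower, while RCVRN, rcvrna and guca1aa were called higher. The lower calls of GUCA1B and guca1d add nothing to their levels, as given above. The families thus went both ways there and did not move as a whole. In the night eye 4 of 14 of these sensors were at least 2-fold higher and 0 lower, where 5.89% and 5.36% of all genes were.

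**Figure D5:**
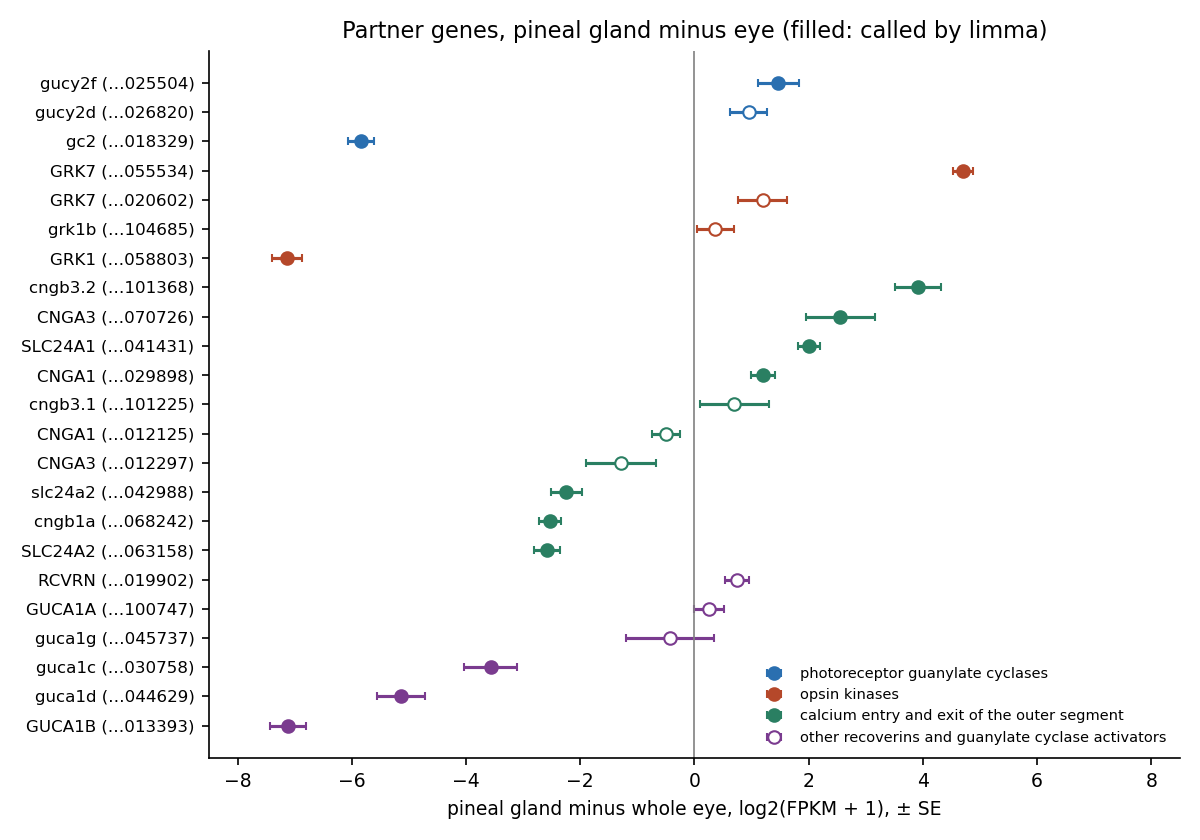
Pineal gland minus eye difference in log2(FPKM + 1) with its SE for the cyclases, opsin kinases, calcium channels and exchangers, and the other recoverins and guanylate cyclase activators. Filled points were called; GRK7 (ENSDARG00000055534) is farthest to the right at 4.70, and GRK1 (-7.14) and GUCA1B (-7.12) are farthest to the left.

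Genes with the most similar profiles over the 6 libraries were ranked by the root mean square difference of centred log2(FPKM + 1) values among 11705 genes, as a description. Nearest to RCVRN were unc119c (0.60), GLMN (0.75), cndp1 (0.82), the exchanger SLC24A1 (0.82) and cngb3.2 (0.85). Nearest to rcvrna were the G protein subunit GNG11 (0.47), the phosphodiesterase subunit PDE6B (ENSDARG00000000380, 0.56), rbp4l (0.58), CNGA1 (ENSDARG00000029898, 0.60) and SLC24A1 (0.62). Nearest to guca1aa were RPE65 (ENSDARG00000007480, 0.41), a retinoid isomerase, the arrestin saga (0.50), aanat2 (0.53), the melatonin enzyme whose regulatory regions drive the transgene, GLMN (0.68) and CNGA3 (ENSDARG00000070726, 0.72). Like guca1aa, aanat2 was high in the night pineal library, with 1922 FPKM at night and 491 FPKM by day. Nearest to GUCA1A were the gap junction gene GJA10 (0.69), the dopamine receptor gene drd4b (0.98), pde5aa (1.07), tgm1l2 (1.07) and gpx9 (1.09). GJA10 was listed at 0 in both pineal libraries and had 1.19 FPKM in the night eye and 36.6 FPKM in the day eye, beside 2.56 and 168 FPKM for GUCA1A.

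Each of these levels depends on how reads were shared among related genes. The recoverin rows and the activator rows are near relatives with similar coding sequence, and the files do not say how reads that match more than 1 of them were treated, so the split between paralogs is uncertain.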

How the data were processed

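Poly-A RNA was sequenced from pools of pineal glands, whole eyes and mixed tissue at night and by day, 1 library each, grouped by the sample labels. The authors deposited FPKM values per gene, made on the danRer10 genome build; the submitters' processing notes name STAR 2.3.0e, FastQC, Subread featureCounts and DESeq2, with the annotation release not given in the sources used here. FPKM values step in whole reads. Reads were recovered within a tolerance of 0.02 reads for 27233 of 27233 genes above 0, of 32105, and the recovered reads and gene lengths rebuilt 145998 of 146167 values to within 1e-6. The unit of those reads (read or fragment) is not known. Of the gene IDs, 26269 had a symbol. No coordinates are given because no annotation of the build was used.

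limma 3.58.1 in R 4.3.3 was fitted to log2(FPKM + 1) for 21325 genes with at least 1 FPKM in 2 libraries, with tissue and time as terms and a trended prior; 2 degrees of freedom were residual and 3.46 came from the prior. The code was tested on simulated data. Alternatives were other pseudocounts, no filter, 2 other scalings, other priors, voom on recovered reads, other model terms and leaving out each library. Night over day ratios carry 95% Clopper-Pearson intervals. The 4 genes, the 13 gene and marker lists and the rules for named genes (the 4 genes, genes of the lists, and the 5 genes nearest in profile with at least 10 FPKM) were chosen with earlier results of these data known.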

Additional observations from a re-analysis of the deposited data

Results flagged for a closer look

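3 recoverin or activator genes lay on opposite sides of 1 in the pineal gland and the eye, by the night over day ratio of their 2 libraries in each tissue. The difference between the tissues was not tested, since each ratio comes from 1 library per time. For these 3 the exact interval of each ratio left out 1, but the intervals cover counting error only. RCVRN (ENSDARG00000009637), guca1aa, guca1c and GUCA1A (ENSDARG00000100747) lay on the same side in both tissues. The other members were under 5 FPKM in both pineal libraries. The share of all genes with opposite sides is not given here, so the count does not single these genes out. rcvrna (ENSDARG00000052223) was at 1.06 in the pineal gland, which became 0.985 after quantile normalization, and at 0.303 in the eye. RCVRN (ENSDARG00000019902) was at 0.803 (0.784 to 0.823) in the pineal gland and at 1.32 (1.29 to 1.36) in the eye, on the same sides under both other scalings. guca1g (ENSDARG00000045737) was at 0.454 in the pineal gland, on values of 2.41 and 5.30 FPKM at night and by day, and at 8.34 in the eye, on 13.8 and 1.65 FPKM.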

How the results depend on the processing

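Among alternative values for the 4 genes on the log2 scale, 231 kept their direction and side of the threshold, 13 lost a call, 4 gained one and 4 changed sign. With a pseudocount of 5 the count of calls over all genes was 5667 in pineal against mixed tissue (9920 otherwise), 6240 in eye against mixed tissue (10501) and 2504 in pineal against eye (4989), and voom called 11 genes by time (0 otherwise). Quantile normalization moved the median of all genes in pineal against mixed tissue to 0.06, against -0.28 as deposited, and the split to 5119 higher and 4722 lower (3491 and 6429 as deposited). The split in eye against mixed tissue was 5379 and 5201 (4424 and 6077), and in pineal against eye 2384 and 2528 (1972 and 3017). GUCA1A in eye against mixed tissue lost its call with a pseudocount of 5 (2.81, adjusted p 0.0843), no filter (4.40, 0.0652) and no time term (4.40, 0.0524), and ranged from 1.63 to 7.16 when single libraries were left out (2.94 without mixed day, 5.86 without mixed night). In pineal against eye it was called with a pseudocount of 0.1 (-5.59, 0.0368) and voom (-6.84, 0.0137) and ranged from -6.95 to -1.43. In pineal against mixed tissue it ranged from -1.25 to 1.67 (-1.10 without pineal night). rcvrna in pineal against eye lost its call with these tissues alone (2.14, 0.0932) and ranged from 1.27 to 3.02 (1.68 without pineal night). guca1aa lost it with no time term (2.52, 0.0659) and ranged from 1.75 to 3.28 (2.70 without pineal day, 2.33 without pineal night). The time term of GUCA1A ranged from -2.86 to -0.045 and was -4.92 with voom, and that of rcvrna ranged from -0.86 to 0.038, the value without the day or without the night eye library. Median-ratio rescaling gave night over day ratios of 0.462, 1.11 and 3.14 for RCVRN, rcvrna and guca1aa in the pineal gland and 0.484, 0.282 and 4.80 in the eye. Quantile normalization gave 0.497, 0.985 and 2.69 in the pineal gland and 6.32 for guca1aa in the eye. The causes of these shifts were not tested.

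With 1 library per tissue and time, ratios within a tissue carry counting error only, and mixed tissue holds 3 to 20 reads of each of the 4 genes. The labels give no replicate numbers, so time was the single pairing used. The time term blocks the tissue comparisons by time, and the values with no time term above are those without that block.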
